A study of Mus musculus with 18 samples.

Results

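The Hox clusters of the mouse genome carry, besides their homeobox genes, a few microRNA hairpins, and 4 mature arms of these hairpins (mmu-miR-10a-5p, mmu-miR-10b-5p, mmu-miR-196a-5p and mmu-miR-196b-5p, written without the mouse prefix from here on) are described across UV-driven skin tumour development. They were taken by name, as microRNAs inside Hox clusters, from a table of 1251 mouse microRNA entries. This choice was made with earlier results of these data known. All 4 passed the filter on low values, which kept the 293 entries detected in at least 6 of 18 libraries.

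The libraries came from 6 littermate female SKH-1E Hairless mice, an outbred strain, numbered 2, 3, 7, 8, 9 and 10. Each mouse gave 1 sample of each of 3 tissue types. CHR was skin without a lesion that had received chronic solar-simulated UV, PAP was a papilloma, and SCC was a cutaneous squamous cell carcinoma (cuSCC). All 3 types had therefore been irradiated, no unirradiated skin entered these comparisons, and each sample type had n = 6. RNA was extracted from whole pieces of tissue, so that keratinocytes, dermal fibroblasts, muscle, vessels and leukocytes all contribute to a value. Fewer cells of a type and less of a microRNA per cell cannot be told apart in such samples. The values are log2 ppm, where ppm is a microRNA's scaled share of the usable reads of its library, quantile normalized across the 18 libraries. The lowest value of the table, 3.32, is 10 ppm and stands for a microRNA that was not detected. Between 163 and 281 entries were detected in the PAP libraries, against 200 to 328 for CHR and 236 to 365 for cuSCC, and the PAP of mice 7 and 10 were the only libraries with fewer than 200. The weakest signal that a library held, its lowest detected value, was as high as 6.83 among PAP, 5.77 among CHR and 4.50 among cuSCC. The epithelial marker miR-205-5p had mean levels of 17.87 for CHR, 18.22 for PAP and 18.08 for cuSCC, near the top of the scale in each tissue.

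Hox genes encode transcription factors that set the position of cells along the body axis, and adult skin, in particular its dermal fibroblasts, keeps a Hox pattern that depends on the body site. The sample labels do not give the body site of each CHR, PAP and cuSCC piece. Differences of body site and of sample type therefore cannot be told apart here. The miR-10 hairpins lie near the Hox4 genes and the miR-196 hairpins near the Hox9 genes, and both families are expressed in nested domains with their neighbours. A microRNA pairs with its target messengers mainly through its seed, bases 2 to 8. miR-196 is known to repress Hox messengers such as that of Hoxb8, and miR-10b is known for its induction by Twist in invasive breast cancer cells.

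The mature sequences show why the members form pairs. They are given 5′ to 3′ from RefSeq (GRCm38.p6), with the seed in capitals, and the 17 microRNA names looked up there, which include all 4 members, were matched.
miR-10a-5p: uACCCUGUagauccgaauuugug
miR-10b-5p: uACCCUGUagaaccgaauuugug
miR-196a-5p: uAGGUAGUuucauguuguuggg
miR-196b-5p: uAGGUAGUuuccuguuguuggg
Counted from 1 at the 5′ end, miR-10b-5p differs from miR-10a-5p by the single substitution U12A, an identity of 95.7%. miR-196b-5p differs from miR-196a-5p by A12C, an identity of 95.5%. Both substitutions lie outside the seed, so each pair has 1 seed. How reads that match both arms of a pair were divided is not given in the sources used here, so each pair is also reported as a sum.

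In the GRCm38 annotation, the miR-10a-5p sequence lies at chr11:96317186-96317208 on the plus strand. Its hairpin overlaps no other gene and sits 992 bp before Hoxb4. miR-10b-5p lies at chr2:74726074-74726096, plus strand, in an intron of Hoxd4 and of the longer Hoxd3 gene. miR-196a-5p has 2 identical copies. The one at chr11:96265187-96265208, plus strand, lies between Hoxb13 and Hoxb9, and the one at chr15:102973365-102973386, plus strand, lies in an intron of Hoxc5, between Hoxc10 and Hoxc9. Because these copies have the same mature sequence, the level of miR-196a-5p cannot be assigned to either cluster. miR-196b-5p lies at chr6:52230129-52230150 on the minus strand, where its hairpin overlaps an exon of Hoxa9.

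The pairs stood at opposite ends of the range. miR-10b-5p and miR-10a-5p were detected in 18 of 18 libraries and were 7th and 13th in mean level among the tested entries. miR-196a-5p was detected in 12 libraries and miR-196b-5p in 8, at positions 213 and 257.

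miR-10b-5p formed a valley in papillomas. Its level ran from 15.56 to 17.97 in CHR with a median of 17.09. In PAP it ran from 14.61 to 15.98 with a median of 15.34. In cuSCC it ran from 15.98 to 18.47 with a median of 17.97. All 6 mice had a lower level in the PAP than in their CHR, and all 6 a higher level in the cuSCC than in their PAP. The ranges touched or overlapped in each comparison: 4 of the 6 PAP lay below every CHR, and 5 of the 6 cuSCC lay above every PAP. The mean fell by 1.70 on the log2 scale from CHR to PAP (SE 0.42, 95% interval -2.62 to -0.78, limma adjusted p = 0.00961), a 3.25-fold decrease. From PAP to cuSCC it rose by 2.40 (SE 0.43, interval 1.48 to 3.32, limma adjusted p = 0.0134), a 5.27-fold increase. Within single mice, the steps were -3.37 to -0.13 for PAP minus CHR and 1.37 to 3.45 for cuSCC minus PAP.

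The fall from CHR was called in every alternative run, with adjusted p-values of up to 0.0358. The rise from PAP to cuSCC lost its call without mouse 3 (adjusted p = 0.0872), mouse 7 (adjusted p = 0.0778) or mouse 8 (adjusted p = 0.096), while its size stayed between 2.19 and 2.60 in all 6 fits that left out a mouse.

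**Figure D1:**
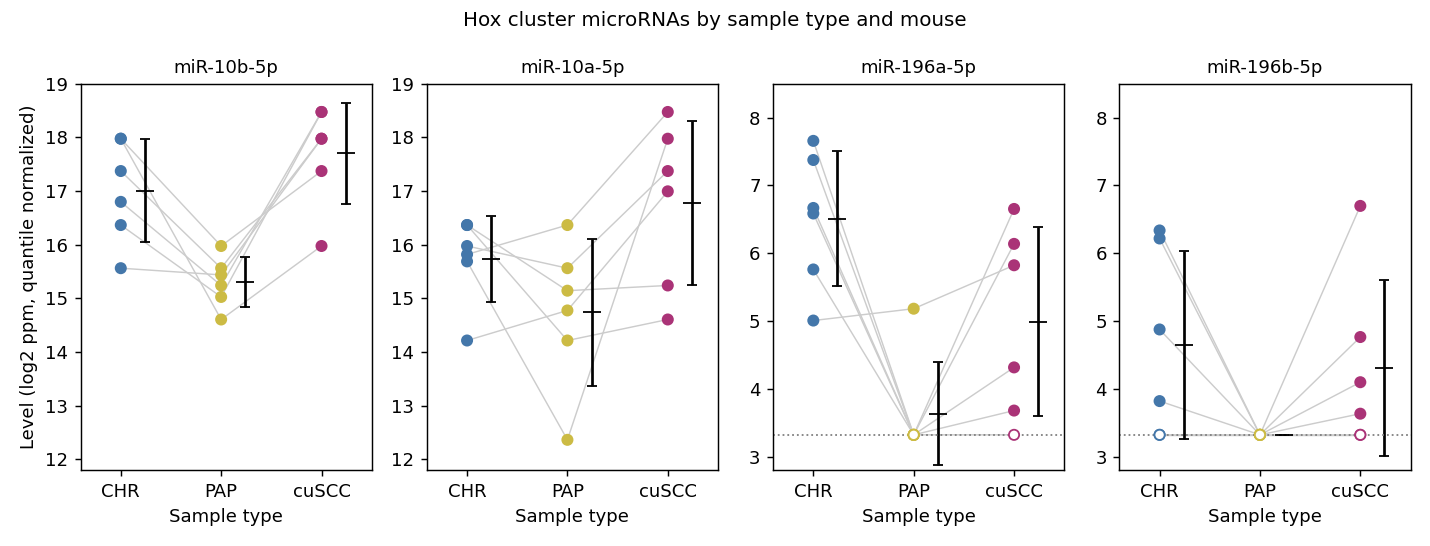
Level in log2 ppm (vertical axis) of the 4 Hox cluster microRNAs in CHR, PAP and cuSCC, with 1 point for each library, grey lines joining samples of a mouse, open points for undetected values at 3.32 (dotted line), and a black bar for the mean and SD of the 6 libraries. miR-10b-5p lies between 14.61 and 15.98 in PAP and reaches 18.47 in cuSCC, and miR-196b-5p is undetected in all PAP.

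miR-10a-5p had the same order of means as its partner but a wider spread. Its level ran from 14.22 to 16.37 in CHR (median 15.90), from 12.37 to 16.37 in PAP (median 14.96), and from 14.61 to 18.47 in cuSCC (median 17.18). The lowest CHR value was that of mouse 2, the lowest PAP value that of mouse 3, and the cuSCC fell into 4 values of at least 16.99 and the lower values of mice 9 (15.24) and 10 (14.61). PAP minus CHR was -1.0 (SE 0.60, interval -2.30 to 0.30, limma adjusted p = 0.227), with 4 of 6 mice lower. cuSCC minus PAP was 2.04 (SE 0.77, interval 0.36 to 3.71, limma adjusted p = 0.115), with 6 of 6 mice higher. Neither difference passed the test over all entries. Without mouse 3, whose step from PAP to cuSCC was 5.61, they were -0.54 and 1.32, and over all fits that left out a mouse they ran from -1.31 to -0.54 and from 1.32 to 2.43. The larger one passed when each undetected entry took the library's own lowest detected value, which leaves the values of miR-10a-5p as they are and changes those of other entries (adjusted p = 0.0472).

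Summed on the linear scale, the miR-10 pair had mean levels of 17.52 ± 0.89 (SD, n = 6) for CHR, 16.14 ± 0.69 for PAP and 18.37 ± 1.11 for cuSCC. With the sum entered in place of its arms, PAP was lower than CHR by -1.38 (SE 0.44, limma adjusted p = 0.0345) and cuSCC higher than PAP by 2.22 (SE 0.51, limma adjusted p = 0.0317). Both changes were thus also called for the sum. The sum adds normalized values of reads that were already assigned, and a read counted for both arms would enter it with each. It therefore cannot show how far the changes depend on the division of reads.

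Against CHR, the cuSCC levels of the miR-10 arms did not pass the test. cuSCC minus CHR was 1.04 for miR-10a-5p (SE 0.62, interval -0.30 to 2.37, limma adjusted p = 0.196) and 0.70 for miR-10b-5p (SE 0.50, interval -0.37 to 1.77, limma adjusted p = 0.278). The direction divided the mice in the same way for both arms. Mice 2, 3, 7 and 8 had higher values in cuSCC, by 1.40 to 2.78 for miR-10a-5p and by 0.60 to 2.41 for miR-10b-5p. Mice 9 and 10 had lower values, by -1.13 and -1.76 for miR-10a-5p and by -0.60 and -2.0 for miR-10b-5p. Without mouse 10, both arms were called as higher in cuSCC than in CHR, miR-10a-5p by 1.60 (adjusted p = 0.0397) and miR-10b-5p by 1.24 (adjusted p = 0.0347). The order of means for both arms was thus cuSCC, CHR and PAP, and the neighbours cuSCC and CHR were not separated beyond their spread with all mice.

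Ranks within a library show what these levels mean on a quantile scale, where the most abundant entries take fixed steps of 18.22 to 18.47 at rank 1 and 15.90 to 15.98 at rank 10. miR-10b-5p had a median rank of 5 for CHR, 14.5 for PAP and 2 for cuSCC. A miR-10 arm was the most abundant entry in 3 of 6 cuSCC libraries (miR-10b-5p in mice 3 and 8, miR-10a-5p in mouse 7) and in 0 CHR or PAP libraries. Both arms were among the 5 most abundant entries in 4 cuSCC libraries and in 0 others. An entry at rank 1 cannot take a higher value, so differences that involve these libraries are bounded by the scale.

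**Figure D2:**
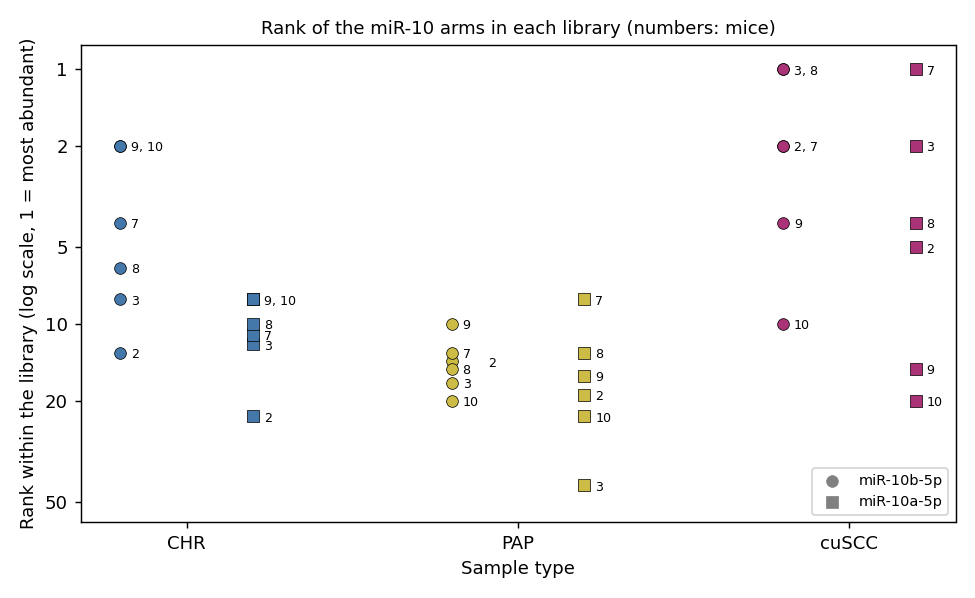
Rank of miR-10b-5p (circles) and miR-10a-5p (squares) among all entries of a library (vertical axis, log scale, 1 is the most abundant) in CHR, PAP and cuSCC, with 1 point for each library and the numbers of the mice beside it. The miR-10b-5p points lie at ranks 10 to 20 in PAP and at ranks 1 to 10 in cuSCC.

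Within a library, miR-10b-5p minus miR-10a-5p was 1.27 ± 0.42 (SD, n = 6) for CHR, 0.57 ± 1.20 for PAP and 0.93 ± 0.88 for cuSCC. miR-10b-5p was the higher arm in 6, 4 and 5 of 6 libraries. No change of this difference was detected between sample types. PAP minus CHR was -0.70 (two-sided exact permutation p = 0.219, 0.437 after Benjamini-Hochberg adjustment over 6 comparisons of both pairs), cuSCC minus CHR was -0.34 (exact permutation p = 0.442, adjusted 0.548) and cuSCC minus PAP was 0.36 (exact permutation p = 0.548, adjusted 0.548).

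miR-196a-5p was found in all samples of irradiated skin and in few papillomas. It was detected in 6 of 6 CHR, at 5.01 to 7.66 (median 6.63), and in 1 of 6 PAP, that of mouse 2 at 5.18. In cuSCC it was detected in 5 of 6, from 3.68 to 6.65, and not in that of mouse 10. From CHR to PAP the mean fell by 2.88 (SE 0.49, interval -3.93 to -1.83, limma adjusted p = 0.000641), and 5 of 6 PAP lay below every CHR. Since 5 PAP stand at the lowest value of the table, this difference depends on where that value is set. With each undetected entry at its own library's lowest detected value it was -0.96 (adjusted p = 0.172), and with a lowest value of 100 ppm for all it was -0.29 (adjusted p = 0.32), so the call was lost in both.

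The papillomas differed in what they could show. In the PAP of mouse 8 the lowest detected value was 3.71, below every CHR level of miR-196a-5p, and the microRNA was not detected. In the PAP of mouse 2, with a lowest detected value of 4.77, it was detected at 5.18, within the CHR range. In the other 4 PAP the lowest detected value lay between 5.40 and 6.83, above the lowest CHR level of 5.01, so a level in the lower part of the CHR range could not have been seen there. In those of mice 7 and 10 it was 6.72 and 6.83, also above the CHR median of 6.63.

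**Figure D3:**
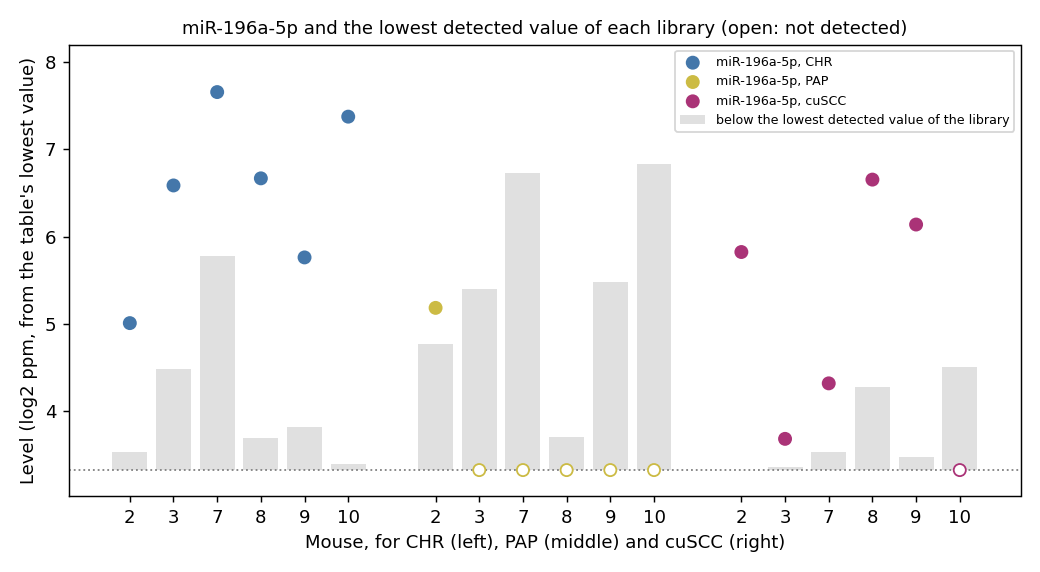
Level of miR-196a-5p in log2 ppm (vertical axis) in each library, by mouse, for CHR, PAP and cuSCC, with open points for undetected values and grey bars from 3.32 up to the lowest detected value of that library. The bars reach 6.72 and 6.83 in the PAP of mice 7 and 10 and 3.71 in that of mouse 8.

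miR-196a-5p had a wide spread in cuSCC, and its differences from the other types did not pass the test. cuSCC minus CHR was -1.52 (SE 0.62, interval -2.84 to -0.20, limma adjusted p = 0.0588), and cuSCC minus PAP was 1.36 (SE 0.61, interval 0.04 to 2.67, limma adjusted p = 0.165). The latter turned to -0.37 with each undetected entry at its own library's lowest detected value, so no order of cuSCC and PAP is given. The cuSCC of mice 3, 7 and 10 differed from their CHR by -4.05 to -2.91, and those of mice 2, 8 and 9 within 0.82 of it. The lower level in cuSCC than in CHR was called without mouse 2 (adjusted p = 0.0386), mouse 8 (adjusted p = 0.047) or mouse 9 (adjusted p = 0.0454).

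miR-196b-5p was detected in 4 CHR, 0 PAP and 4 cuSCC. Its detected values ran from 3.82 to 6.34 in CHR and from 3.63 to 6.70 in cuSCC, so these types covered the same range. PAP minus CHR was -1.33 (SE 0.53, interval -2.48 to -0.18, limma adjusted p = 0.0757), cuSCC minus CHR was -0.34 (SE 0.68, interval -1.79 to 1.10, limma adjusted p = 0.694) and cuSCC minus PAP was 0.98 (SE 0.51, interval -0.11 to 2.08, limma adjusted p = 0.243). The first and the last turned in sign, to 0.39 and -0.95, under that same setting, with library-specific lowest values. cuSCC minus CHR turned to 0.00889 at a lowest value of 100 ppm and ran from -0.99 to 0.17 without single mice, above 0 without mouse 3 or mouse 10. No direction is therefore given for miR-196b-5p in any comparison.

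The sum of the miR-196 pair, with an undetected arm counted at 10 ppm, was 6.94 ± 0.99 (SD, n = 6) for CHR, 4.52 ± 0.49 for PAP and 5.78 ± 1.27 for cuSCC, and PAP minus CHR of the sum was -2.41 (SE 0.44, limma adjusted p = 0.00108). In 5 of 6 PAP both arms were undetected, and the sum there is the lowest it can take, 4.32, so this call rests on the same limit as that of miR-196a-5p. cuSCC minus CHR of the sum was -1.16 (limma adjusted p = 0.125) and cuSCC minus PAP was 1.26 (limma adjusted p = 0.145). miR-196a-5p minus miR-196b-5p within a library was 1.86 ± 1.36 for CHR. In the CHR of mice 2 and 7, where it was 1.69 and 4.33, miR-196b-5p was undetected and entered at the lowest value. No papilloma had both arms detected. The 1.86 in the PAP of mouse 2 sets a detected miR-196a-5p against an undetected miR-196b-5p. In the other PAP both arms were undetected and the difference is 0 by construction, so no comparison with PAP is read from it. cuSCC minus CHR of this difference was -1.18 (exact permutation p = 0.139, adjusted 0.416 over the same 6 comparisons). Both arms were undetected in the cuSCC of mouse 10, and miR-196b-5p in that of mouse 7.

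Counted together, 2 of the 4 members were called between PAP and CHR, both lower in PAP, where 32.4% of the tested entries were called and 18.4% were called lower. Between cuSCC and CHR 0 of 4 were called by limma, against 42.3% of all tested entries in either direction. The unadjusted limma p of miR-196a-5p was 0.0271, and 51.5% of the entries had one under 0.05. Between cuSCC and PAP 1 of 4 was called, higher in cuSCC, where 11.6% of the tested entries were called and 9.22% were called higher. The median log2 difference of the members was -1.51, 0.18 and 1.70 in these comparisons, beside -0.23, 0.11 and 0.21 for all tested entries. Each member median lies midway between a miR-10 arm and a miR-196 arm. The miR-196 differences from PAP depend on where undetected values are set. These medians are therefore not read as a shift shared by the 4 members. The comparisons share sample groups, so that a low PAP level enters both the first and the last.

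**Figure D4:**
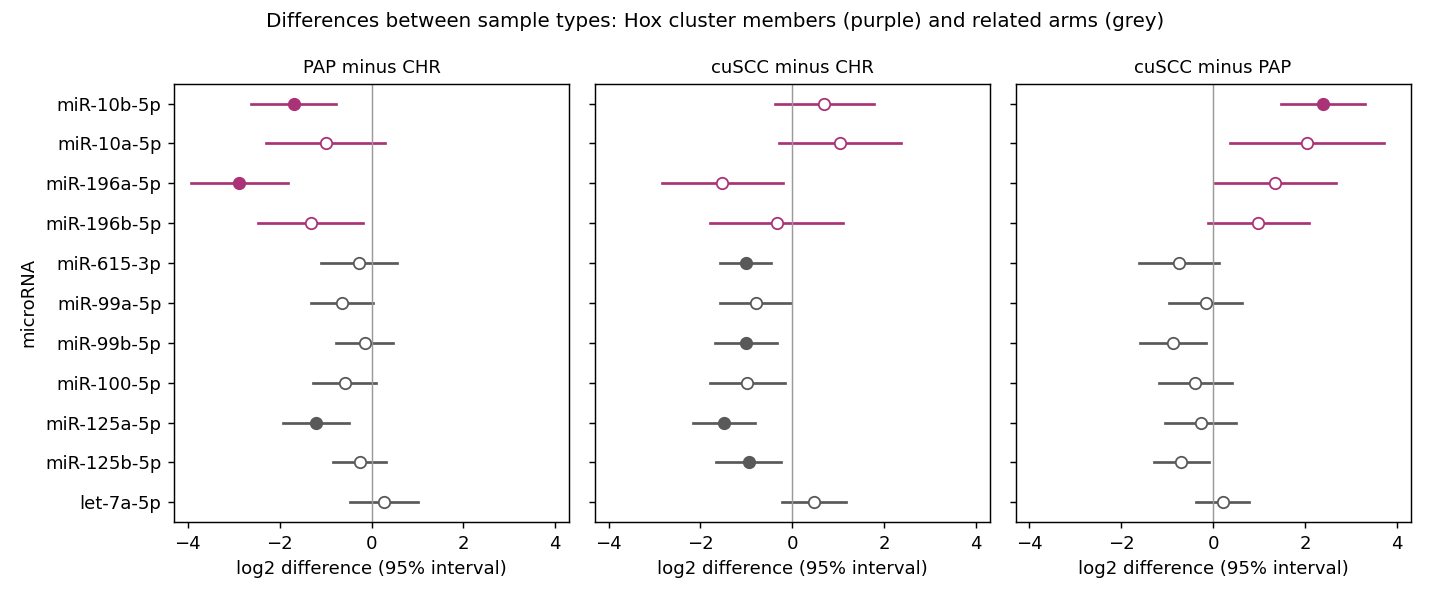
Log2 difference between sample types with its 95% interval (horizontal axes) for PAP minus CHR, cuSCC minus CHR and cuSCC minus PAP, for the 4 Hox cluster members in purple and 7 related arms in grey, with filled points at a limma adjusted p under 0.05. Filled member points are miR-10b-5p at -1.70 and miR-196a-5p at -2.88 in the first panel and miR-10b-5p at 2.40 in the last.

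The other arms of Hox cluster hairpins were mostly absent. Of 7 such arms, miR-10b-3p, miR-196a-1-3p, miR-196a-2-3p and miR-196b-3p were at the lowest value in all libraries, miR-615-5p was detected in 4, and miR-10a-3p in 3. The libraries with miR-10a-3p, the passenger arm of miR-10a-5p, were the cuSCC of mice 2, 3 and 7, in which miR-10a-5p was at 16.99, 17.97 and 18.47. In them miR-10a-3p itself was at 3.42, 3.85 and 4.32, near the lowest value. It was not detected in the cuSCC of mouse 8, which had miR-10a-5p at 17.37 and a lowest detected value of 4.27. The arm that passed the filter, miR-615-3p, comes from a hairpin in an intron of Hoxc5.
miR-615-3p: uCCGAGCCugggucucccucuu
Its level was 9.25 ± 0.23 (SD, n = 6) for CHR, 8.98 ± 0.91 for PAP and 8.24 ± 0.39 for cuSCC. It fell by 1.02 from CHR to cuSCC (SE 0.26, limma adjusted p = 0.00719), and all 6 cuSCC lay below all 6 CHR, as was true of 10.6% of the tested entries. PAP minus CHR was -0.27 (adjusted p = 0.612) and cuSCC minus PAP was -0.74 (adjusted p = 0.252), so this Hox cluster arm did not have the papilloma minimum of the miR-10 arms among its means.

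The miR-99, miR-100 and miR-125 arms belong to the mir-10 family by descent but lie outside the Hox clusters and have other seeds, as miR-100-5p and miR-125a-5p show.
miR-100-5p: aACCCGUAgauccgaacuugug
miR-125a-5p: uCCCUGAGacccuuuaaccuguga
Of these 5 relatives, 1 was called lower in PAP than in CHR, miR-125a-5p by -1.21 (limma adjusted p = 0.0166). Of all tested entries, 18.4% were called lower there. In cuSCC 3 relatives were called lower than in CHR, as were 22.2% of the tested entries: miR-125a-5p by -1.48 (adjusted p = 0.00234), miR-99b-5p by -1.01 (adjusted p = 0.0211) and miR-125b-5p by -0.95 (adjusted p = 0.0325). Between cuSCC and PAP 0 relatives were called by limma, against 11.6% of the tested entries. The median difference of the relatives was -0.59, -0.98 and -0.39 in the same order of comparisons. The call of miR-99b-5p was lost with mouse as a block (adjusted p = 0.0563) and without mouse 2, 3, 7, 8 or 10. Without single mice, miR-125b-5p lost its call in 4 of 6 fits and the papilloma call of miR-125a-5p in 2. let-7a-5p, whose bases 3 to 8 are the AGGUAG at bases 2 to 7 of miR-196, was not called in any comparison (PAP minus CHR 0.27, cuSCC minus CHR 0.47, cuSCC minus PAP 0.21).

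The patterns most like those of the members were found by Pearson's r of the log2 values over the 18 libraries, which come from the same 6 mice and share the quantile scale, so that r is a description. Between members, r was 0.801 for the miR-10 arms, 0.616 for the miR-196 arms and 0.572 for miR-10b-5p with miR-196a-5p, and lower for miR-10b-5p with miR-196b-5p (0.403) and for miR-10a-5p with miR-196a-5p (0.279) and miR-196b-5p (0.169). With each library taken as its deviation from the mean of its sample type, r was 0.718 for the miR-10 arms, 0.459 for the miR-196 arms and 0.427 for miR-10b-5p with miR-196a-5p. miR-10b-5p was most like miR-195a-5p (r = 0.908), miR-143-3p (r = 0.907) and miR-199b-3p (r = 0.887), and least like miR-106b-3p (r = -0.843). miR-10a-5p was most like miR-143-3p (r = 0.795), miR-195a-5p (r = 0.793) and miR-497-5p (r = 0.791), and least like miR-3107-5p (r = -0.831), whose mean values equal those of the erythroid miR-486-5p in every sample type. miR-143-3p and the miR-199 arms are abundant in smooth muscle and fibroblasts. miR-196a-5p was most like miR-133a-3p (r = 0.832), a microRNA of skeletal muscle, miR-204-5p (r = 0.821) and miR-145a-5p (r = 0.813). For the deviations from the means of the sample types, these r were lower, at 0.592, 0.561 and 0.527. In several PAP, miR-196a-5p, miR-133a-3p and miR-204-5p were all undetected. The r of miR-196a-5p with miR-133a-3p and miR-204-5p therefore also reflects shared undetected values. For miR-196b-5p the highest r was 0.608, with miR-146b-3p, and 0.554 for the deviations. Both of these arms were undetected in all PAP.

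Levels of tissue markers are given beside those of the members. miR-143-3p and miR-133a-3p were already picked above by their r with members in these same libraries. Their likeness to those members is therefore no separate result. miR-143-3p differed by -1.53 between PAP and CHR (limma adjusted p = 0.0125) and by 1.98 between cuSCC and PAP (adjusted p = 0.0402), beside -1.70 and 2.40 for miR-10b-5p. Of 6 fibroblast and smooth muscle markers, 4 were called lower in PAP than in CHR and 3 higher in cuSCC than in PAP. Of the tested entries, 18.4% and 9.22% were called in these directions. Both marker counts include miR-199a-3p and miR-199b-3p, whose means were equal, at 9.13 for PAP and 11.76 for cuSCC. These are therefore not 2 independent measurements. The summed level of the 6 markers, with both entries included, was 14.39 to 15.12 for CHR, 11.13 to 14.17 for PAP and 12.69 to 15.69 for cuSCC. None of the 6 was at the lowest value in all libraries. The cuSCC of mouse 10, lowest of the cuSCC in both miR-10 arms, was also lowest in miR-143-3p, at 12.12 against 13.33 to 15.03 in the others.

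Skeletal muscle markers were called lower in PAP than in CHR for all 3 tested of 4 listed, as were 18.4% of the tested entries. Their summed levels were 15.44 to 15.98 for CHR, 5.32 to 12.45 for PAP and 6.04 to 14.24 for cuSCC. The CHR sum is mostly miR-133a-3p, with a CHR mean of 15.63. miR-206-3p, specific to skeletal muscle, was at the lowest value in all PAP. Its CHR mean was 6.54, and the lowest detected values in the PAP of mice 7 and 10 were 6.72 and 6.83. A level at that mean could not have been seen in those 2 libraries. The highest muscle level among the PAP and the PAP with miR-196a-5p detected were both those of mouse 2, and the cuSCC without miR-196a-5p, that of mouse 10, had miR-133a-3p at 5.16 against 13.55 to 14.22 in the others.

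Of 5 leukocyte markers 4 were tested, 2 of them called lower in PAP than in CHR, as were 18.4% of the tested entries. Between cuSCC and CHR, 2 were called lower and 1, miR-142-5p, higher. Between cuSCC and PAP, miR-142-5p was called higher, by 2.53 (limma adjusted p = 0.0018), and 0 lower. The summed levels were 13.12 to 14.28 for CHR, 9.03 to 11.82 for PAP and 11.13 to 12.59 for cuSCC. Both endothelial markers were called higher in cuSCC than in either other type. Of the tested entries, 9.22% were called higher in cuSCC than in PAP, and 42.3% were called in either direction between cuSCC and CHR. The endothelial sums were 7.84 to 9.35 for CHR, 7.61 to 9.0 for PAP and 9.26 to 11.17 for cuSCC. Of the 7 epithelial markers, 4 were called higher in PAP than in CHR, where 32.4% of the tested entries were called in either direction. Their summed levels were 17.50 to 18.55 over all libraries. That sum is mostly miR-205-5p, with means of 18.22 for PAP and 18.08 for cuSCC, against 11.90 and 12.56 for miR-203-3p. It therefore says little about the other epithelial markers. Of 4 erythroid markers 2 were tested. For miR-451a, PAP minus CHR was 4.78 (limma adjusted p = 0.00106) and cuSCC minus CHR 3.99 (adjusted p = 0.000747), while miR-486-5p was lower in cuSCC than in PAP by -1.83 (adjusted p = 0.0394) and than in CHR by -1.27 (adjusted p = 0.0325). The erythroid sum was 16.69 to 17.84 for CHR, 16.70 to 18.24 for PAP and 14.87 to 17.87 for cuSCC, with miR-144-3p at the lowest value in all libraries. The part of tissue composition in the differences of the members was not tested.

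**Figure D5:**
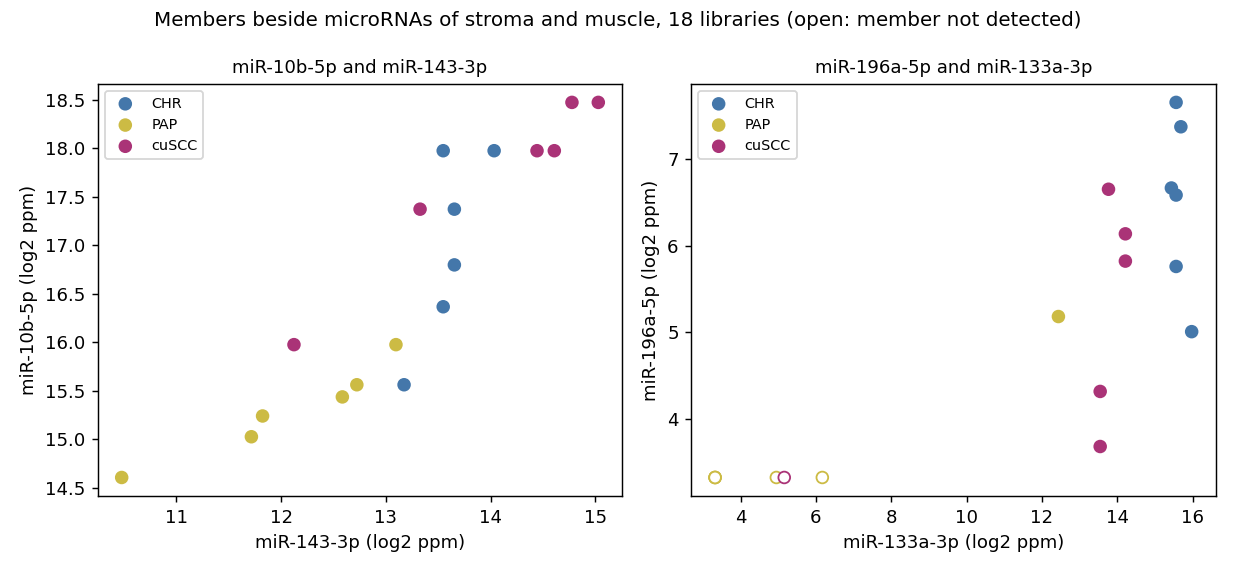
Left, miR-10b-5p against miR-143-3p, and right, miR-196a-5p against miR-133a-3p, both axes in log2 ppm, with 1 point for each of 18 libraries coloured by sample type and open points where the member was not detected. The 6 PAP lie at 10.48 to 13.10 in miR-143-3p, and the undetected values of miR-196a-5p are in libraries with at most 6.17 in miR-133a-3p.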

How the data were processed

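Small RNA libraries of 18 samples were used, 6 each of CHR, PAP and cuSCC. Per its methods, the study trimmed the reads, discarded very short ones and those ending in homopolymers, matched the rest to miRBase with BLAST and scaled to ppm of usable reads; the submitters' notes name mm10. The deposited values are log2 ppm. That the authors quantile normalized them, and that 10 ppm is the lowest value, was read from the values. Read totals do not enter here. The depth of single libraries is therefore unknown, and values carry no counting error.

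Entries detected in at least 6 of 18 libraries were fitted with limma 3.58.1 in R 4.3.3 (lmFit, eBayes, 2 sample types at a time, two-sided, Benjamini-Hochberg over 293 entries, called at an adjusted p under 0.05), and checked on simulated data. Differences within a pair of arms were tested with exact permutation (Python 3.11.15, numpy 2.4.6), which cannot go below p = 0.00216 with 6 against 6. The 4 members, the arms and relatives compared with them, the marker lists, the rule of the 3 most and 1 least similar entries by r, and the tests were chosen with earlier results of these data known. miR-106b-3p and miR-3107-5p are named as least similar by that rule, and miR-205-5p and miR-206-3p as markers.

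Samples of the same number are from the same mouse and are paired. Their deviations from the group means correlated at a mean r of 0.025 (PAP and CHR), -0.0676 (cuSCC and CHR) and 0.0582 (cuSCC and PAP). Alternatives were other detection filters, one fit on all types, mouse as a block, centring, unmoderated and permutation tests, other lowest values, the study's thresholds (fold 1.5, unadjusted p), summed pairs, and leaving out each mouse. Leaving out the PAP of mice 7 and 10 was added after seeing the data. Genome positions are from the GRCm38 annotation, and the values carry none.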

Additional observations from a re-analysis of the deposited data

Results flagged for a closer look

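A library was listed when it stood apart from the other 5 of its sample type by a large gap relative to the whole range (Dixon's test at the 95% level), which chance gives in about 1 of 20 groups; 7 of 39 groups were listed. Among the members, the CHR of mouse 2 was lowest in miR-10a-5p, at 14.22 against 15.69 to 16.37 in the other CHR. The PAP of mouse 2 was the highest in miR-196a-5p, at 5.18, with the other PAP undetected, and for the same reason in miR-196a-5p minus miR-196b-5p, at 1.86. Among the relatives, the cuSCC of mouse 9 was lowest in miR-99a-5p at 8.99, the PAP of mouse 8 highest in miR-99b-5p at 16.80, and the CHR of mouse 10 highest in miR-125a-5p at 17.71 and in miR-125b-5p at 15.56.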

How the results depend on the processing

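With mouse as a replicate block, no member call changed. In that paired fit the adjusted p was 0.0222 for miR-10b-5p in PAP minus CHR, 0.0218 for miR-10b-5p in cuSCC minus PAP and 0.00963 for miR-196a-5p in PAP minus CHR, and 77, 110 and 24 entries were called in PAP minus CHR, cuSCC minus CHR and cuSCC minus PAP, against 95, 124 and 34 without the block.

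Without single mice, these counts ran from 55 to 79, from 77 to 129 and from 1 to 59, and the counts of members called were 2 throughout, 0 to 2, and 0 to 1. A lowest value of 100 ppm gave 57, 80 and 2 entries and 1 member in PAP minus CHR. Undetected entries at the lowest detected value of their library gave 80 entries and 2 members in cuSCC minus PAP and 1 member in PAP minus CHR. In cuSCC minus PAP, 2 entries were called without a filter, 18 with centring on entries outside the marker lists, 6 with the unmoderated test, 83 by the study's thresholds, and 4 without the PAP of mice 7 and 10, which was chosen after seeing the data and left miR-10b-5p called (adjusted p = 0.0467). That centring shifted all differences by 0.19 in PAP minus CHR and -0.19 in cuSCC minus PAP and turned no member.

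With undetected entries at the lowest detected value, miR-196b-5p turned to 0.39 in PAP minus CHR and to -0.95 in cuSCC minus PAP, miR-196a-5p turned to -0.37 in cuSCC minus PAP. miR-196a-5p minus miR-196b-5p in PAP minus CHR was -1.35 in that setting and -1.89 to -0.99 without single mice, but with both arms undetected in 5 of 6 PAP it is 0 there by construction and shows no change between the arms. At 100 ppm, it turned to -0.00746 in cuSCC minus PAP, and miR-196b-5p to 0.00889 in cuSCC minus CHR, as it did without mouse 3 (0.04) and mouse 10 (0.17). miR-10b-5p minus miR-10a-5p in cuSCC minus CHR was -0.51 to 0.00329 without single mice. Small differences of other arms also turned, in PAP minus CHR miR-615-3p (-0.49 to 0.0119 without single mice, 0.00688 without the PAP of mice 7 and 10), miR-99b-5p (0.0404 with centring outside the markers) and let-7a-5p (-0.00652 to 0.48 without single mice), and in cuSCC minus PAP miR-99a-5p (-0.35 to 0.23 without single mice). The causes were not tested. The depth of single libraries is unknown, and for the miR-196 arms the lowest detected value of a library limits what could be seen.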
